A study of Mus musculus with 12 samples.

Results

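The ATF4 amino acid and tRNA synthetase program was taken as a list of 44 genes: transcription factors of the integrated stress response, enzymes that make serine, glycine, asparagine, proline and alanine, amino acid transporters, brakes on mTORC1 and translation, secreted and surface proteins, and cytosolic tRNA synthetases. The list was chosen with earlier results of these data known. Its members were found by gene symbol in the array annotation, and 41 of the 44 had a probe set among 19505 genes measured. Mars was found under its current symbol Mars1, and Aars, Gdf15 and Pycr1 were not analysed here. NMuMG-ErbB2 cells, a mouse mammary epithelial line carrying the ErbB2 oncogene, had been injected into the tail vein of mice, and the lung metastases they formed were cultured as explants. Their RNA was hybridised to mouse expression arrays. The 4 groups held 3 arrays each: PGC-1alpha explants in 100 uM phenformin, PGC-1alpha explants in water, VC explants in phenformin and VC explants in water, all kept for 4 days. PGC-1alpha explants came from cells that overexpressed the coactivator encoded by Ppargc1a, and VC explants from the matching control cells. All 4 groups carry ErbB2 and all passed through a mouse lung. The labels name no promoter for either construct. They do not say whether a line is 1 clone, or whether the replicates of a group were different mice or cultures. The p-values below therefore reflect only the scatter among these arrays, part of which may be technical. A difference between the lines cannot be told apart from other differences between the metastases explanted. The transplanted and the host cells are both mouse, so an array does not separate their RNA, and fewer cells of a type cannot be told apart from less RNA per cell.

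ATF4 is a transcription factor whose protein is made when phosphorylation of the initiation factor eIF2 slows general translation, as happens in amino acid shortage, endoplasmic reticulum stress, haem shortage or mitochondrial stress. It binds DNA as a dimer with C/EBP partners at a composite C/EBP-ATF element and is known for raising genes of amino acid synthesis, amino acid uptake and tRNA charging. Phenformin belongs to the biguanides and blocks mitochondrial complex I. Respiratory inhibitors are known to engage this program in other cells, in part because aspartate and asparagine synthesis depend on respiration.

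Values are the authors' normalised array values, read as log2 values from their range. Ppargc1a followed the labels: its mean was 8.25 ± 0.10 in PGC-1alpha explants in phenformin, 8.14 ± 0.11 in PGC-1alpha explants in water, 7.12 ± 0.16 in VC explants in phenformin and 7.11 ± 0.09 in VC explants in water (SD, n = 3 each). The limit of detection used here is the 95th percentile of each array's negative controls. Of 9 mammary epithelial markers, 5 exceeded it on all 12 arrays and 4 on none. Of the markers of other cells, 0 of 9 for fibroblasts, 1 of 9 for leukocytes, 1 of 7 for endothelium and 0 of 7 for lung epithelium exceeded it on all 12 arrays. On none did 8, 7, 6 and 7 of them exceed it. The mean level of the 9 fibroblast markers was 5.42 to 5.52 in PGC-1alpha explants in phenformin, against 5.42 to 5.63 in water, and 5.35 to 5.53 in VC explants in phenformin, against 5.53 to 5.80 in water. Of these 9, 5 had a difference above 0 under phenformin in PGC-1alpha explants (median 0.006), 1 in VC explants (median -0.23) and 0 over both lines (median -0.12). Of 7 endothelial markers, 0 had a difference above 0 under phenformin in VC explants (median -0.14), with a mean level of 5.57 to 5.84 in phenformin, against 5.84 to 5.86 in water. In PGC-1alpha explants 4 of the 7 were above 0 (median 0.004), with a mean level of 5.70 to 5.83 in phenformin, against 5.78 to 5.95 in water. Over both lines 1 of the 7 endothelial markers was above 0 (median -0.12). Krt19, a keratin of simple epithelia, was called higher in VC explants (0.70 ± 0.15, adjusted p = 0.0405) and over both lines (0.63 ± 0.10, adjusted p = 0.00493). No other of the 9 mammary epithelial markers was called there. Of the 9, 4 had a difference above 0 in VC explants (median -0.03) and 6 over both lines (median 0.05). The part of these markers in the results was not tested. The median of the negative controls was 5.09 to 5.20 on the 6 phenformin arrays and 4.69 to 5.02 on the 6 water arrays, so it moved with the treatment without overlap. VC water replicate 2, the array with the highest mean of fibroblast and of lung epithelial markers, stood apart on the second principal component of all genes, at 33.28 against 9.16 for the next highest array. Calls of members that rest on it are given with and without it, and calls of other genes are given with all 12 arrays only. Without it, 40 genes in place of 234 were called under phenformin in VC explants, and 496 in place of 894 over both lines. Of the 41 members, 36 exceeded the limit on all arrays, Gpt2 and Slc1a4 on some, and Atf3, Fgf21 and Stc2 on none.

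Under phenformin Gpt2 and Vldlr were called higher in both lines and Wars in VC explants, and the other members were not called within a line. In PGC-1alpha explants, Gpt2 rose by at least 1.59-fold, since part of its water arrays lay below the limit of detection, and Vldlr rose by 1.56-fold. In VC explants Vldlr (1.64-fold), Gpt2 (1.72-fold) and Wars (1.54-fold) rose. No member fell past the threshold in either line, where 0.0615% of all genes in PGC-1alpha explants and 0.282% in VC explants did. The call was an adjusted p under 0.05 in limma with Benjamini-Hochberg adjustment over all genes. It took 2 of 41 members in PGC-1alpha explants, where it took 0.195% of all genes (0.133% higher), and 3 of 41 in VC explants, where it took 1.2% (0.918% higher). At an unadjusted p under 0.05, 13 members in PGC-1alpha explants (12 higher and 1 lower) and 14 in VC explants (all higher) passed, against 11.4% and 16.8% of all genes in either direction.

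Gpt2, the mitochondrial alanine aminotransferase that joins alanine to the tricarboxylic acid cycle, had the largest response of the members in both lines. It read 8.69, 8.43 and 8.53 in PGC-1alpha explants in phenformin, against 7.59, 7.98 and 7.71 in water. Its values were 8.72, 8.75 and 8.89 in VC explants in phenformin, against 7.99, 7.86 and 8.16 in water. Every phenformin array stood above every water array of its line, while in PGC-1alpha explants in water it exceeded the limit of detection on 1 of 3 arrays. With each water array set at the limit where it was below it, Gpt2 was at least 1.59-fold higher in phenformin in PGC-1alpha explants. The log2 difference was 0.79 ± 0.13 in PGC-1alpha explants (adjusted p = 0.0301) and 0.78 ± 0.13 in VC explants (adjusted p = 0.0134). Leaving out PGC-1alpha phenformin replicate 1, 2 or 3 or PGC-1alpha water replicate 1 ended the call in PGC-1alpha explants (highest adjusted p = 0.197), and leaving out VC phenformin replicate 2 or 3 or VC water replicate 2 ended it in VC explants (highest adjusted p = 0.0646). The size stayed between 0.71 and 0.90 in all 12 of these fits.

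Vldlr, the very low density lipoprotein receptor, is a surface protein that ATF4 is known to induce under stress. It read 8.80, 8.71 and 8.76 in PGC-1alpha explants in phenformin, against 8.09, 8.29 and 7.97 in water. In the other line it read 8.96, 9.03 and 9.03 in VC explants in phenformin, against 8.18, 8.43 and 8.28 in water. The 3 phenformin arrays of each line lay close together and clear of the water arrays. The log2 difference was 0.64 ± 0.11 in PGC-1alpha explants (adjusted p = 0.0397) and 0.72 ± 0.11 in VC explants (adjusted p = 0.0103). The call in VC explants was lost without VC phenformin replicate 2 (adjusted p = 0.0643), and that in PGC-1alpha explants was lost without any 1 of its 6 arrays (highest adjusted p = 0.224). Its promoter is shown because it is the one, among the members called within a line, found to hold the core of the ATF4 element. The window, 1 of 2 for Vldlr in the table, runs from 250 bases before to 50 after a RefSeq start site, at chr19:27216770-27217069 on the plus strand of GRCm38.p6, and the capitals mark the core TGATGNAA, here read on the opposite strand.
Vldlr: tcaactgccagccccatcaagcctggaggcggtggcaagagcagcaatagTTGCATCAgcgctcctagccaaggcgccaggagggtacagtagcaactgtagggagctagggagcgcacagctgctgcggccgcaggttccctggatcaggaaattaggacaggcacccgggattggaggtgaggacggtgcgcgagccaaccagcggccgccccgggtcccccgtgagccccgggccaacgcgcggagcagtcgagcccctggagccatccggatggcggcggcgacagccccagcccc

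Wars, the cytosolic tryptophanyl-tRNA synthetase, is also known as an interferon-induced gene. It read 10.64, 10.37 and 10.67 in PGC-1alpha explants in phenformin, against 10.07, 10.28 and 10.46 in water. Its values were 10.79, 11.05 and 10.85 in VC explants in phenformin, against 10.31, 10.18 and 10.34 in water. The phenformin arrays stood clear of the water arrays in VC explants, and the groups overlapped in PGC-1alpha explants. The log2 difference was 0.28 ± 0.13 in PGC-1alpha explants (adjusted p = 0.427) and 0.62 ± 0.13 in VC explants (adjusted p = 0.0377). The call in VC explants was lost without any of the 3 VC phenformin arrays, VC water replicate 1 or VC water replicate 2 (highest adjusted p = 0.186). It was also lost after the values were quantile normalised again (adjusted p = 0.0544). Without VC water replicate 2, the log2 differences in VC explants were 0.78 for Vldlr (adjusted p = 0.0225), 0.71 for Gpt2 (adjusted p = 0.0583) and 0.57 for Wars (adjusted p = 0.128).

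**Figure D1:**
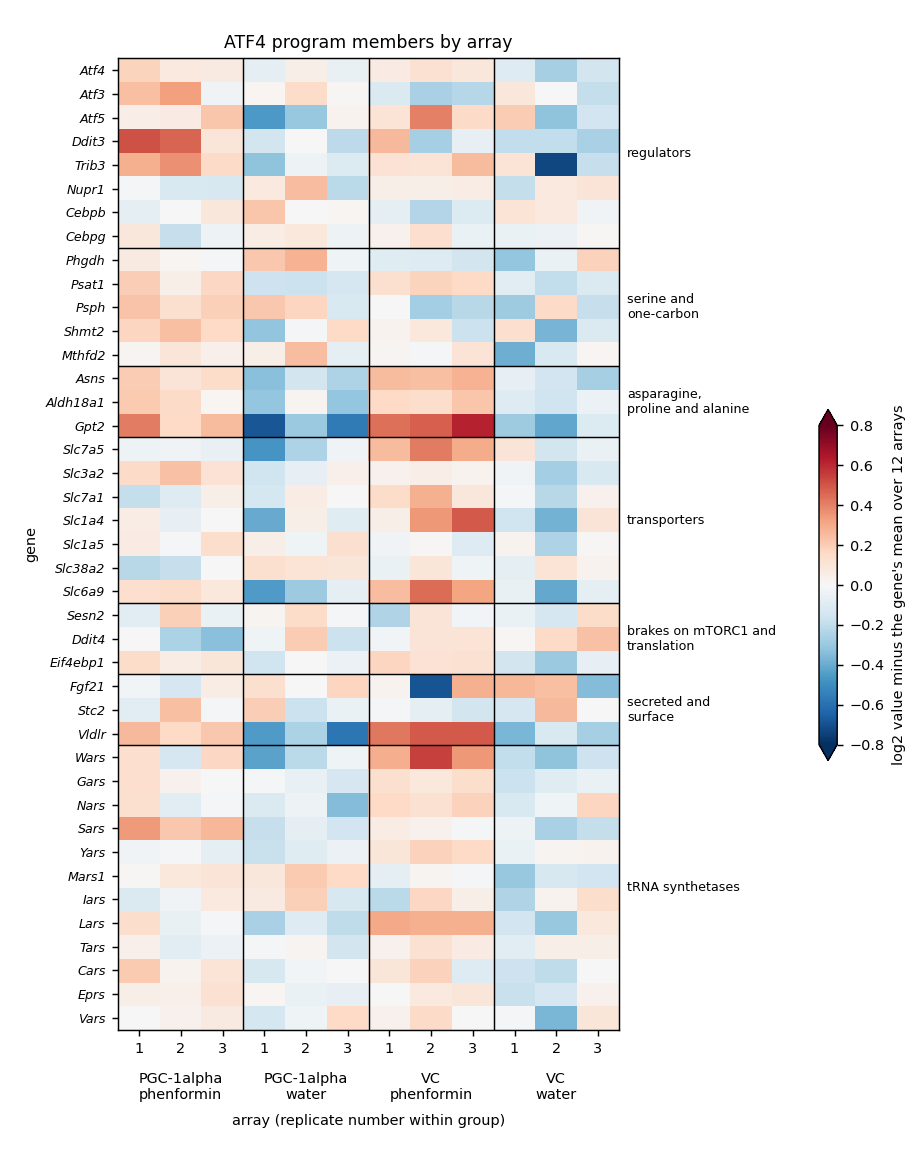
Each row is 1 of the 41 members, each column 1 array, and the colour gives the log2 value minus the mean of that gene over the 12 arrays. Gpt2, Vldlr and Asns are above their mean on all 6 phenformin arrays and below it on all 6 water arrays, and Trib3 is at its lowest in VC water replicate 2, at 8.34.

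Because the same treatment was given to both lines and the 2 responses share no arrays, the mean of both responses was also tested in the same fit, a contrast added after the data had been seen. Over both lines 9 of 41 members rose and none fell, where limma called 4.58% of all genes (3.35% higher and 1.24% lower). Beside Gpt2 (0.79 ± 0.09, adjusted p = 0.000538), Vldlr (0.68 ± 0.08, adjusted p = 0.000577) and Wars (0.45 ± 0.09, adjusted p = 0.0154), these were Asns, Slc6a9, Psat1, Sars, Lars and Aldh18a1. At an unadjusted p under 0.05, 19 members were higher and none lower, against 20.7% of all genes in either direction. Gpt2, Vldlr, Asns and Slc6a9 passed whichever of the 12 arrays was left out. Wars was lost without PGC-1alpha phenformin replicate 1 (adjusted p = 0.0506). Without VC water replicate 2 the count was 5, and Psat1 (adjusted p = 0.0577), Sars (adjusted p = 0.0643), Lars (adjusted p = 0.0916) and Aldh18a1 (adjusted p = 0.0938) were lost.

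Asns, the asparagine synthetase, is the textbook target of amino acid shortage. It read 11.85, 11.75 and 11.79 in PGC-1alpha explants in phenformin, against 11.31, 11.50 and 11.40 in water. In VC explants it read 11.90, 11.88 and 11.92 in phenformin and 11.58, 11.49 and 11.38 in water. All 6 phenformin arrays stood above all 6 water arrays. The log2 difference over both lines was 0.41 ± 0.07 (adjusted p = 0.00657), with 0.39 ± 0.10 in PGC-1alpha explants and 0.42 ± 0.10 in VC explants, neither past the threshold within its line (adjusted p = 0.139 and 0.0609). Its promoter window, at chr6:7693160-7693459 on the minus strand of GRCm38.p6, holds the same core on the strand of the gene, close before the start site. It is shown, printed in the direction of the gene, since Asns is the other member called over both lines whose window holds the core.
Asns: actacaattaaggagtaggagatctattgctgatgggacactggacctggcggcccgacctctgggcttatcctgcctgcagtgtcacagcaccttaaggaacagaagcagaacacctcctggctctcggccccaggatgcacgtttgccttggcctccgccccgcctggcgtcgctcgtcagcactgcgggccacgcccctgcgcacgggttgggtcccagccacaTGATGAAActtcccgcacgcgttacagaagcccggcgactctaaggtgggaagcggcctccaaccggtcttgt

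Aldh18a1, which catalyses the first steps of proline synthesis from glutamate, rose over both lines by 0.30 ± 0.08 (adjusted p = 0.0485). It read 10.59, 10.53 and 10.39 in PGC-1alpha explants in phenformin, against 10.07, 10.39 and 10.07 in water. In VC explants the values were 10.53, 10.51 and 10.60 in phenformin and 10.27, 10.22 and 10.32 in water. PGC-1alpha water replicate 2 was the single water array that reached a phenformin array of its line, and the call was lost without 10 of the 12 arrays in turn (highest adjusted p = 0.13) and after quantile normalisation (adjusted p = 0.103). With Gpt2 and Asns, all 3 measured members that make asparagine, proline or alanine were thus called over both lines.

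Of the 5 serine and one-carbon members, Psat1, the phosphoserine aminotransferase, rose. It read 12.44, 12.29 and 12.41 in PGC-1alpha explants in phenformin, against 12.08, 12.07 and 12.11 in water. The VC explants read 12.37, 12.42 and 12.40 in phenformin and 12.16, 12.05 and 12.13 in water. No water array reached a phenformin array, and the difference over both lines was 0.29 ± 0.07 (adjusted p = 0.0267), lost in 8 of 12 fits that left out 1 array (highest adjusted p = 0.0808). The other 4 did not pass in any phenformin comparison. Phgdh, which commits 3-phosphoglycerate to serine, differed by -0.13 ± 0.13 in PGC-1alpha explants and -0.06 ± 0.13 in VC explants. Psph, the last enzyme of serine synthesis, differed by 0.09 ± 0.14 in PGC-1alpha explants and -0.06 ± 0.14 in VC explants. Shmt2, the mitochondrial serine hydroxymethyltransferase, differed by 0.24 ± 0.15 in PGC-1alpha explants and 0.10 ± 0.15 in VC explants, where the difference was -0.03 without VC water replicate 2. Mthfd2, the mitochondrial methylene-tetrahydrofolate dehydrogenase, differed by -0.02 ± 0.12 in PGC-1alpha explants and 0.21 ± 0.12 in VC explants. Psat1 separated the treatments on every array, and Phgdh, upstream of it, had overlapping groups in both lines.

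**Figure D2:**
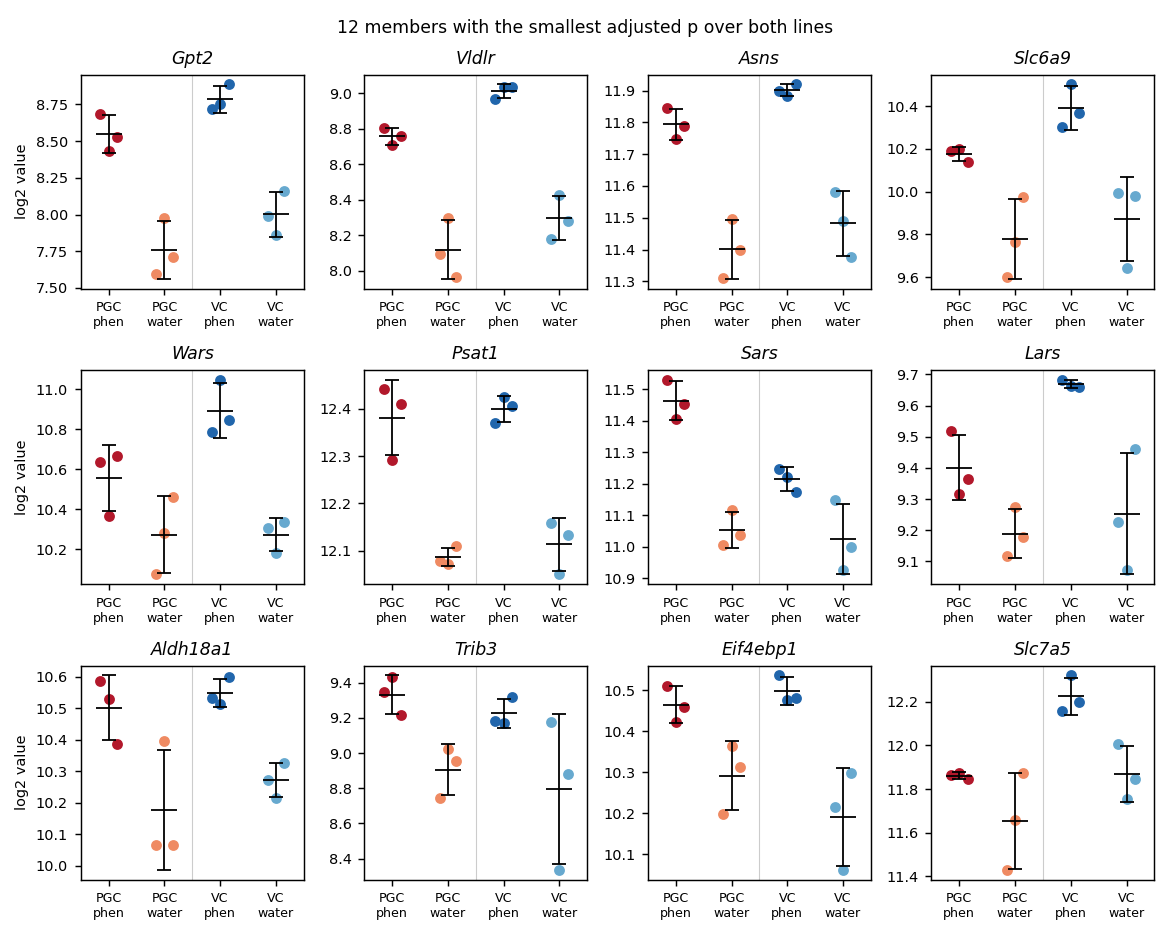
Points are single arrays (log2 value, y axis) for the 12 members with the smallest adjusted p over both lines, by group on the x axis, and bars give the mean ± SD (n = 3 each). Gpt2, Vldlr, Asns and Psat1 show every phenformin array above every water array of both lines, whereas Trib3 in VC explants in water spreads from 8.34 to 9.17.

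Among the 7 transporters, Slc6a9, the glycine transporter GLYT1, rose over both lines by 0.46 ± 0.09 (adjusted p = 0.0137). It read 10.19, 10.20 and 10.14 in PGC-1alpha explants in phenformin, against 9.60, 9.76 and 9.97 in water. Its values were 10.30, 10.50 and 10.37 in VC explants in phenformin, against 9.99, 9.65 and 9.98 in water. The groups did not overlap in either line. Slc3a2, the heavy chain that carries several light-chain transporters to the membrane, was apart in both lines as well, with differences of 0.23 ± 0.10 in PGC-1alpha explants and 0.18 ± 0.10 in VC explants, but was not called (adjusted p = 0.125 over both lines). Without VC water replicate 2 the difference in VC explants was 0.11. Its partner Slc7a5, the large neutral amino acid transporter LAT1, read 11.86, 11.87 and 11.85 in PGC-1alpha explants in phenformin, against 11.43, 11.66 and 11.87 in water. In VC explants it read 12.16, 12.32 and 12.20 in phenformin, against 12.01, 11.75 and 11.85 in water. The groups were apart in VC explants and overlapped in PGC-1alpha explants, where replicate 3 in water was as high as the phenformin arrays. It was not called over both lines (adjusted p = 0.0796). Slc1a4, a transporter of alanine, serine and cysteine, differed by 0.15 ± 0.15 in PGC-1alpha explants and 0.44 ± 0.15 in VC explants, and by 0.32 in VC explants without VC water replicate 2. The arginine and lysine transporter Slc7a1 differed by -0.06 ± 0.11 in PGC-1alpha explants and 0.24 ± 0.11 in VC explants. The glutamine transporter Slc1a5 differed by 0.02 ± 0.11 in PGC-1alpha explants and 0.03 ± 0.11 in VC explants. Slc38a2, the small neutral amino acid transporter SNAT2, was the one member whose 3 phenformin arrays all lay below the water arrays in PGC-1alpha explants, at 11.84, 11.88 and 12.06 against 12.19, 12.17 and 12.15, a difference of -0.25 ± 0.10 that did not pass (adjusted p = 0.38).

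The 12 measured cytosolic tRNA synthetases, which load amino acids onto their tRNAs, had a median log2 difference of 0.12 in PGC-1alpha explants and 0.16 in VC explants under phenformin, and 10 and 12 of the 12 had differences above 0, against 45.9% and 49.0% of all genes. Beside Wars, Sars and Lars rose over both lines. Sars, the seryl-tRNA synthetase, read 11.53, 11.41 and 11.45 in PGC-1alpha explants in phenformin, against 11.01, 11.12 and 11.04 in water. Sars read 11.25, 11.22 and 11.17 in VC explants in phenformin and 11.15, 10.93 and 11.00 in water. Its difference was 0.30 ± 0.07 over both lines (adjusted p = 0.0299), and it was the synthetase with the largest difference in PGC-1alpha explants (0.41 ± 0.10), lost over both lines in 9 of 12 fits that left out 1 array and after quantile normalisation (adjusted p = 0.0663). Lars, the leucyl-tRNA synthetase, read 9.52, 9.32 and 9.37 in PGC-1alpha explants in phenformin, against 9.12, 9.27 and 9.18 in water. The VC explants read 9.68, 9.66 and 9.66 in phenformin, against 9.23, 9.07 and 9.46 in water. The 3 VC phenformin arrays lay within a narrow range above all other arrays of either line. Its difference over both lines was 0.31 ± 0.08 (adjusted p = 0.0444), lost in 11 of 12 fits that left out 1 array (highest adjusted p = 0.123). The glycyl-tRNA synthetase Gars, which is encoded by 1 gene for cytosol and mitochondria, stood apart in both lines with 0.13 ± 0.10 in PGC-1alpha explants and 0.22 ± 0.10 in VC explants, and was not called over both lines (adjusted p = 0.157). The other 8 synthetases, Nars, Yars, Mars1, Iars, Tars, Cars, Eprs and Vars, were not called in any comparison, with differences from -0.09 (Mars1) to 0.18 (Nars) in PGC-1alpha explants and from 0.02 (Iars) to 0.18 (Cars) in VC explants. Vars, at 0.15 in VC explants, was at 0.01 without VC water replicate 2.

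None of the 8 regulators was called in any comparison. Atf4 itself read 11.42, 11.32 and 11.32 in PGC-1alpha explants in phenformin, against 11.17, 11.29 and 11.19 in water. Atf4 read 11.31, 11.37 and 11.34 in VC explants in phenformin and 11.15, 10.98 and 11.10 in water. Its groups were apart in both lines, by 0.14 ± 0.10 in PGC-1alpha explants and 0.26 ± 0.10 in VC explants, with an adjusted p of 0.113 over both lines. ATF4 is controlled mostly through translation of its mRNA, which these arrays do not measure. Ddit3, the pro-apoptotic factor CHOP, read 9.61, 9.56 and 9.20 in PGC-1alpha explants in phenformin, against 8.95, 9.10 and 8.89 in water. Ddit3 read 9.36, 8.83 and 9.03 in VC explants in phenformin, against 8.90, 8.90 and 8.84 in water. The groups were apart in PGC-1alpha explants and overlapped in VC explants. The difference was 0.48 ± 0.14 in PGC-1alpha explants (adjusted p = 0.218) and 0.19 ± 0.14 in VC explants, and a second, dimmer probe set of Ddit3 gave 0.14 and 0.08. Trib3, a pseudokinase that ATF4 and CHOP are known to induce, read 9.35, 9.43 and 9.22 in PGC-1alpha explants in phenformin, against 8.74, 9.02 and 8.95 in water. The VC explants read 9.18, 9.17 and 9.32 in phenformin, against 9.17, 8.34 and 8.88 in water. The groups were apart in PGC-1alpha explants, and in VC explants water replicate 1 reached the phenformin arrays. Trib3 differed by 0.43 ± 0.17 in PGC-1alpha explants and 0.43 ± 0.17 in VC explants (adjusted p = 0.0605 over both lines). In VC explants its difference was 0.20 without VC water replicate 2, where it read 8.34. Atf5, an ATF4 target that is known for the mitochondrial stress response, differed by 0.36 ± 0.16 in PGC-1alpha explants and 0.31 ± 0.16 in VC explants, and by 0.20 in VC explants without VC water replicate 2. Atf3 did not exceed the limit of detection on any array. The other 3 had small differences: -0.12 and 0.05 for the stress factor Nupr1 in PGC-1alpha and VC explants, -0.07 and -0.20 for Cebpb, and -0.08 and 0.07 for Cebpg, a dimer partner of ATF4. The 3 Cebpb arrays of VC explants in phenformin, at 8.24, 8.08 and 8.21, all lay below those in water, at 8.43, 8.40 and 8.29.

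None of the 3 brakes on mTORC1 and translation was called. Eif4ebp1, which encodes the translation repressor 4E-BP1, was apart in both lines: it read 10.51, 10.42 and 10.46 in PGC-1alpha explants in phenformin, against 10.20, 10.36 and 10.31 in water. In VC explants it read 10.54, 10.48 and 10.48 in phenformin and 10.22, 10.06 and 10.30 in water, and over both lines it differed by 0.24 ± 0.07 (adjusted p = 0.0736). Sesn2, a leucine-binding inhibitor of mTORC1, differed by -0.04 ± 0.13 in PGC-1alpha explants and -0.04 ± 0.13 in VC explants. Ddit4, the mTORC1 inhibitor REDD1, differed by -0.19 ± 0.13 in PGC-1alpha explants and -0.07 ± 0.13 in VC explants. Of the secreted members, the hormone genes Fgf21 and Stc2 did not exceed the limit of detection on any array, so no fold is given.

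**Figure D3:**
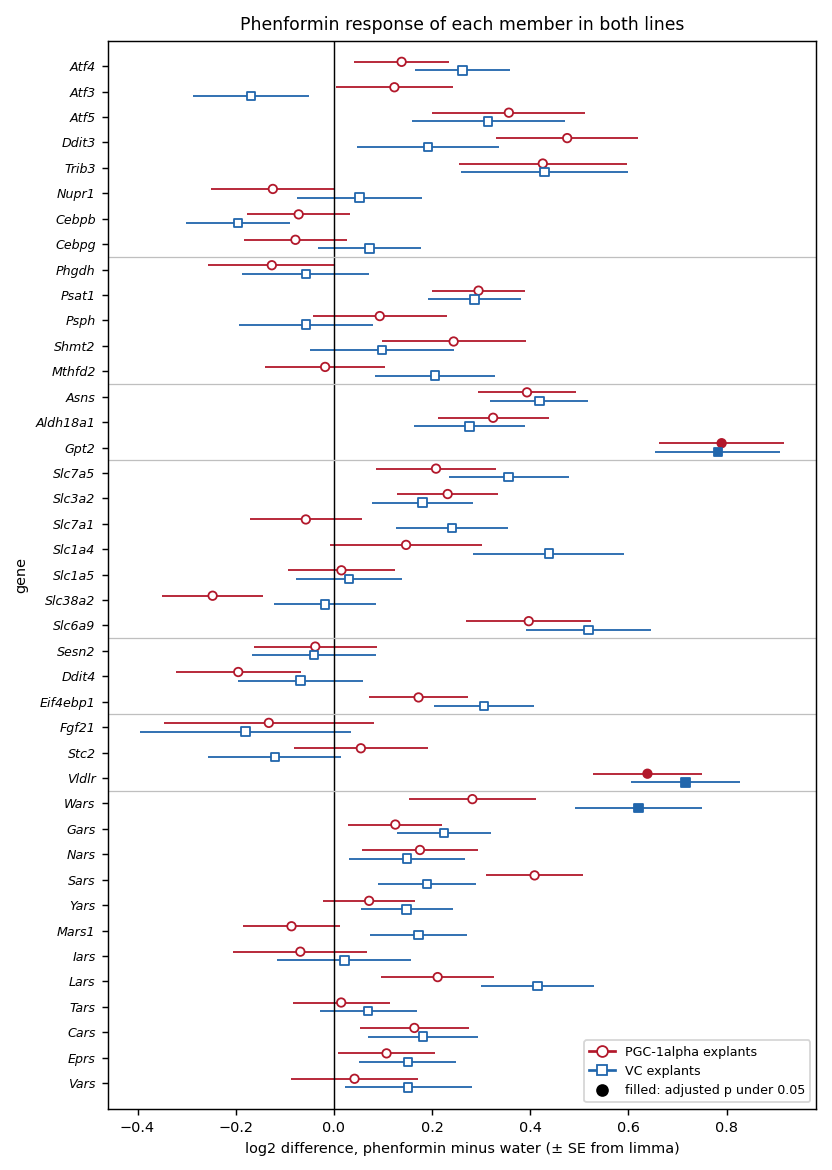
The x axis gives the log2 difference, phenformin minus water, with its standard error, for each member (y axis, grouped by role) in PGC-1alpha explants (red circles) and VC explants (blue squares), filled where the adjusted p was under 0.05. Filled symbols are those of Gpt2 and Vldlr in both lines and Wars in VC explants, and most other members lie right of 0.

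As a whole list, the members had a median log2 difference of 0.13 in PGC-1alpha explants and 0.18 in VC explants under phenformin, against medians of -0.02 and -0.01 over all genes. Most members were well expressed, and 39 of them lay among the 9752 genes above the median level. There the medians of the members were 0.14 and 0.18, against -0.002 and 0.07 over the 9752 genes. After the values were quantile normalised again the medians of the members were 0.11 and 0.07, so that in VC explants the size depended on the scaling. The difference was above 0 in both lines for 26 members (63.4%, against 29.0% of all genes), below 0 in both for 6, above 0 in PGC-1alpha explants alone for 3 and in VC explants alone for 6. All 3 phenformin arrays lay above all 3 water arrays for 16 of 41 members in PGC-1alpha explants, against 8.93% of all genes, and for 17 of 41 in VC explants, against 11.5%. In both lines this held for 11 of 41, or 26.8%, against 4.2% of all genes (1.43% were lower in both): Atf4, Asns, Psat1, Gpt2, Slc3a2, Slc6a9, Vldlr, Eif4ebp1, Gars, Sars and Lars. It was reversed, with phenformin lower, for Slc38a2 in PGC-1alpha explants (10.7% of all genes) and for Cebpb in VC explants (7.86%). Across the 41 members the responses of the lines had a Pearson correlation of 0.78, and across all 19505 genes of 0.46. These are descriptions across genes, which are not independent replicates.

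The array median of the members moved with the treatment and with the negative controls alike. The median deviation of the 41 members from their own means was 0.04 to 0.11 on the 6 phenformin arrays and -0.15 to -0.01 on the 6 water arrays. Over all genes the same quantity ran from -0.02 to 0.03 on phenformin arrays and from -0.01 to 0.03 on water arrays. The gap between the medians of positive and negative controls was 3.92 to 4.08 on the phenformin arrays and 4.11 to 4.31 on the water arrays. It thus followed the treatment without overlap, and a fit with it as a covariate cannot separate it from the treatment. With this covariate, no member passed in limma in either line or over both. That fit called 1 gene in all in PGC-1alpha explants, none in VC explants and none over both lines. At an unadjusted p under 0.05 it held 7 members in PGC-1alpha explants, 6 in VC explants and 8 over both lines. Of all 19505 genes, 1345, 1647 and 1659 passed there in either direction. The estimates over both lines were then 0.77 for Gpt2, 0.71 for Vldlr, 0.45 for Asns, 0.50 for Slc6a9 and 0.78 for Wars, but 0.15 for Aldh18a1, 0.12 for Trib3 and -0.02 for Ddit3. The part of the control signal in the members' differences was not tested.

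**Figure D4:**
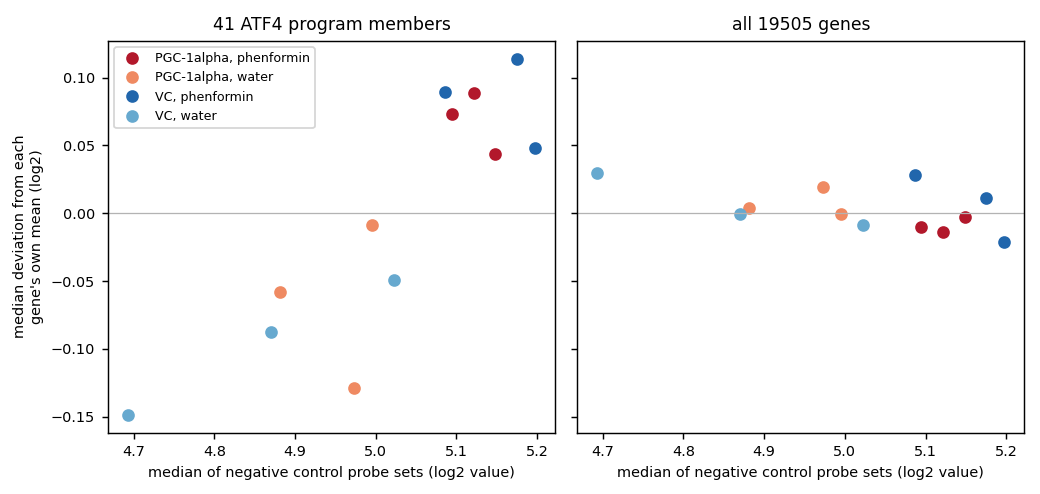
Each point is 1 array, with the median of its negative control probe sets on the x axis and, on the y axis, the median deviation of the 41 members (left) or of all 19505 genes (right) from each gene's mean over the arrays, in log2 units. The 6 phenformin arrays lie to the right at 5.09 to 5.20 and, for the members, above 0 in the left panel.

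Whether the lines differed in this program was asked in 3 ways, and no member was called in any. The phenformin responses, PGC-1alpha minus VC, had a median difference of -0.05 over the members and -0.03 over all genes, and of 0.04 over the members after quantile normalisation, so its sign depended on the scaling. limma called none of 41 members and 0% of all genes, and at an unadjusted p under 0.05 none of the members and 5.22% of all genes passed. Wars had the most negative difference of responses (-0.34 ± 0.18, adjusted p = 0.928), followed by Slc7a1 (-0.30 ± 0.16) and Slc1a4 (-0.29 ± 0.22, and -0.17 without VC water replicate 2). Among members above the limit of detection, the most positive was that of Ddit3 (0.28 ± 0.20). With these errors, a difference between the responses of Gpt2 (0.01 ± 0.18) or Asns (-0.03 ± 0.14) was not detectable.

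Between PGC-1alpha and VC explants in water, none of 41 members was called, where limma called 2% of all genes (0.636% higher and 1.37% lower), and 1 member, Mars1, passed at an unadjusted p under 0.05, against 11.8% of all genes. Mars1, the methionyl-tRNA synthetase, read 8.86, 8.98 and 8.93 in PGC-1alpha explants, against 8.47, 8.65 and 8.62 in VC explants (0.35 ± 0.10, adjusted p = 0.109). The arrays were apart and higher in PGC-1alpha explants for 2 members, Atf4 and Mars1, against 6.53% of all genes, and lower for none, against 7.61%. Between the lines in phenformin, none of 41 was called, where limma called 4.01% of all genes (0.856% higher and 3.16% lower), and 9 passed at an unadjusted p under 0.05 (4 higher and 5 lower), against 16.1%. Slc7a5 was lower in all 3 PGC-1alpha arrays than in all 3 VC arrays, at 11.86, 11.87 and 11.85 against 12.16, 12.32 and 12.20 (-0.36 ± 0.12, adjusted p = 0.132). The arrays were apart for 17 members in phenformin: 7 were higher in PGC-1alpha explants, against 11.1% of all genes, and 10 lower, against 16.4%. The 7 were Atf3 (below the limit of detection on all arrays), Phgdh, Psph, Shmt2, Slc3a2, Cebpb and Sars. The 10 were Asns, Gpt2, Slc7a5, Slc7a1, Slc6a9, Vldlr, Nupr1, Wars, Yars and Lars. This comparison shares its phenformin arrays with the responses above. The median over the members in phenformin was -0.02, and 0.05 after quantile normalisation. Single markers of cell types also differed between the lines. Mrc1, a macrophage mannose receptor, averaged 9.23 ± 0.05 in PGC-1alpha explants and 7.95 ± 0.42 in VC explants in water (adjusted p = 0.000918), and 8.96 ± 0.04 in PGC-1alpha explants and 7.48 ± 0.20 in VC explants in phenformin (adjusted p = 0.000176; SD, n = 3 each). The VC arrays in phenformin did not exceed the limit of detection. Lower in PGC-1alpha explants were the endothelial Flt1, by -0.56 ± 0.12 on the log2 scale among water arrays (adjusted p = 0.0292) and -0.46 ± 0.12 among phenformin arrays (adjusted p = 0.04999), Cd14 of myeloid cells in phenformin (-0.41 ± 0.10, adjusted p = 0.0338), and the keratin Krt7 in both, below the limit on all arrays. Of the 7 endothelial markers, 3 had a difference above 0, PGC-1alpha minus VC, in water (median -0.01) and 4 in phenformin (median 0.20). Of the 9 leukocyte markers, 8 had a difference above 0 in water (median 0.15) and 3 in phenformin (median -0.11). The part of these markers in the comparisons of the lines was not tested.

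The neighbours of the program outside the list were taken from lists of related genes. These lists were chosen with earlier results of these data known, so their counts are descriptions and not independent support. Of 10 further ATF4 targets, 1 was called higher in PGC-1alpha explants, against 0.133% of all genes, 2 in VC explants, against 0.918%, and none lower. Cth, which encodes cystathionine gamma-lyase and releases cysteine from cystathionine, averaged 8.80 ± 0.15 in PGC-1alpha explants in phenformin and 7.03 ± 0.09 in water, and 8.22 ± 0.11 in VC explants in phenformin and 6.89 ± 0.07 in water (SD, n = 3 each). It exceeded the limit of detection on all 6 phenformin arrays and on no water array. With the water arrays set at the limit, Cth was at least 1.97-fold higher in phenformin in PGC-1alpha explants (adjusted p = 6.17e-06) and at least 1.35-fold higher in VC explants (adjusted p = 0.000268). Chac1, a glutathione-degrading enzyme, rose in VC explants (0.72 ± 0.16, adjusted p = 0.0486) and differed by 0.38 ± 0.16 in PGC-1alpha explants (adjusted p = 0.384). Over both lines 5 of the 10 were called higher, against 3.35% of all genes: Cth, Chac1, Ppp1r15a (below the limit of detection on all arrays), Vegfa and the cystine transporter Slc7a11 (0.37 ± 0.09, adjusted p = 0.0427). Between the lines in phenformin, Cth was higher in PGC-1alpha than in VC explants (0.59 ± 0.11, adjusted p = 0.00842) and Slc7a11 lower (-0.54 ± 0.13, adjusted p = 0.0398). In water, Chac1 was higher in PGC-1alpha explants (0.68 ± 0.16, adjusted p = 0.047).

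Upstream, 8 genes of the eIF2 kinases, phosphatase subunits and mitochondrial relay were measured. Of these 1 was called higher in VC explants, against 0.918% of all genes, and 2 over both lines, against 3.35%. Oma1, the mitochondrial protease that cleaves DELE1, was called higher in VC explants (adjusted p = 0.0377) and over both lines (adjusted p = 0.0132), at levels below the limit of detection on all arrays. Ppp1r15a, the phosphatase subunit GADD34 that reverses eIF2 phosphorylation, was also called higher over both lines (adjusted p = 0.0207), likewise below the limit. The kinase genes had differences over both lines of -0.01 ± 0.09 (Eif2ak1, HRI), 0.16 ± 0.08 (Eif2ak2, PKR), 0.04 ± 0.09 (Eif2ak3, PERK) and 0.01 ± 0.08 (Eif2ak4, GCN2), and none was called.

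The core TGATGNAA, searched on both strands, occurred in the promoter windows of 11 of the 33 members that the RefSeq promoter table (GRCm38.p6) covers, in 11 of 39 windows or 28.2%. Among all 32851 windows of the same length 3.97% hold it, and among the 19143 windows of genes on the array 3.38%. The members were listed as genes of the ATF4 program, so these shares describe the list and not the response to phenformin. The fully specified core TGATGCAA, which is 1 of the forms of TGATGNAA, was found in 20.5% of the members' windows and in 0.895% of all windows. The cAMP response element TGACGTCA was in none of the members' windows and in 1.79% of all. The sites are shown with 8 bases on each side to let them be compared, all turned so that the core, in capitals, reads the same way. Read along the strand of the gene, the core begins within 15 bases of the start site for Tars, Slc1a4, Iars, Yars and Trib3. For Asns and Gars it begins within 30 bases before the start site.
Asns: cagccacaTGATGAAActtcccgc
Atf3: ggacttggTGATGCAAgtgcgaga
Fgf21: tggacggaTGATGCAAtggggggg
Gars: ccggtgcaTGATGAAAtagcgcag
Iars: tctggaggTGATGCAAtactgaca
Nupr1: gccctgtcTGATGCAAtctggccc
Slc1a4: gctggagaTGATGCAAcgcaggag
Tars: taaccagcTGATGCAAcgggactc
Trib3: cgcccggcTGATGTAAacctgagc
Vldlr: aggagcgcTGATGCAActattgct
Yars: agctcagcTGATGCAAcccgacgg

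Whether members with and without the core differed in response was not tested. Over both lines the median log2 difference was 0.11 for the 11 members with the core and 0.11 for the 22 covered members without it, with ranges of -0.16 to 0.68 and of -0.13 to 0.79. Within the lines the medians were 0.12 with it and 0.10 without it in PGC-1alpha explants, and 0.15 with it and 0.18 without it in VC explants. Atf3 and Fgf21, which hold the core, did not exceed the limit of detection. Of the 9 members called over both lines, Vldlr and Asns hold it, Gpt2, Slc6a9, Psat1, Sars and Aldh18a1 have windows without these letters, and Wars and Lars were not matched in the table. Elements outside these windows, such as those in introns, were not searched.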

How the data were processed

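Total RNA of 12 explant cultures was profiled on mouse arrays, with labelling from 10 ng of RNA, per the labels' protocols. The authors deposited 1 table of normalised values with 28815 probe sets, read as log2 from their range. Neither their log base nor their normalisation is given in the sources used here, and every fold rests on the log2 reading. The 12 value columns of a second table match no sample label and were not used. Probe sets were named by the platform annotation, with symbols brought up to date by Entrez identifier (RefSeq, GRCm38.p6): 19572 probe sets have exactly 1 symbol, 0 have several and 2634 transcript clusters have none. The probe set with the highest mean was kept for each of 19505 genes. No filter on level was applied, and the 95th percentile of 5222 negative control probe sets per array served as the limit of detection. Between 34.6% and 39.1% of genes exceeded it.

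Groups and replicate numbers came from the sample titles. The 4 group means were estimated by lmFit and eBayes of limma 3.58.1 (R 4.3.3), with 8 residual degrees of freedom. Two-sided p-values were adjusted by Benjamini-Hochberg over the whole gene table, with a threshold of 0.05. The fit was tested on simulated data. Alternatives were a second quantile normalisation, a level filter, the replicate number as a block, a covariate of control probe sets, trended robust eBayes, averaged probe sets, the 6 arrays compared alone and each array left out. All 41 members are named, and of each related list up to 4 called genes per contrast. Members and lists were chosen with earlier results of these data known. Array number limits the precision. Promoter sequences are from RefSeq, and no protein sequences were used. Coordinates of probe sets are not given.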

Additional observations from a re-analysis of the deposited data

How the results depend on the processing

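The counts of called members changed with the processing, and no called member changed direction in the settings run. In PGC-1alpha explants the count under phenformin was 2 as reported, 4 among genes above the median level, 5 with trended robust eBayes, and 0 with the replicate block, with the control covariate or with the 6 arrays alone. In VC explants it was 3 as reported, 7 above the median level, 9 with trended robust eBayes, and 0 with the covariate or with the 6 arrays alone. Over both lines it was 9 as reported, 16 above the median level, 17 with trended robust eBayes, 5 with the replicate block and 0 with the covariate. Between the lines in phenformin it was 0 as reported, 1 above the median level (Atf3) and 1 with trended robust eBayes (Slc7a5), and in water 0 as reported and 1 above the median level (Mars1). For the difference of responses it was 0 in every setting run. Leaving out 1 array gave 0 to 1 in PGC-1alpha explants, 0 to 5 in VC explants, 4 to 10 over both lines, and 0 for the other 3 comparisons. Over all genes, 38 were called in PGC-1alpha explants, 234 in VC explants and 894 over both lines. Among the 9752 genes above the median level these counts were 187, 637 and 1545 (1.92%, 6.53% and 15.8%). They were 250, 666 and 1595 with trended robust eBayes, 10, 100 and 490 with the replicate block, and 1, 0 and 0 with the covariate. The 6 arrays alone gave 15 in PGC-1alpha explants and 13 in VC explants, and quantile normalisation gave 62 in PGC-1alpha explants. Between the lines in water the 391 genes became 193 with the covariate, 140 with the 6 arrays alone and 626 with trended robust eBayes. Deviations of same-numbered arrays from their group means correlated between -0.37 and 0.06, which does not settle whether such arrays were handled as pairs. The core TGATGCAA in place of TGATGNAA left 8 of 11 members with a site. The cause of these changes was not tested. Signal near the negative controls limits Atf3, Fgf21 and Stc2, and in part Gpt2 and Slc1a4.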

Other observations

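Other amino acid genes were taken from lists of related genes, likewise chosen with earlier results of these data known, and the values are given without explanation. Of 12 measured amino acid enzymes, Bcat2, the mitochondrial branched-chain aminotransferase (0.57 ± 0.10, adjusted p = 0.0175), and Got1, the cytosolic aspartate aminotransferase (0.44 ± 0.10, adjusted p = 0.0456), were called higher in VC explants under phenformin, against 0.918% of all genes, and none was called in PGC-1alpha explants, where the differences were 0.31 ± 0.10 and 0.31 ± 0.10. Over both lines Bcat2 (0.44 ± 0.07, adjusted p = 0.0049) and Got1 (0.38 ± 0.07, adjusted p = 0.00817) rose, and Cbs, the cystathionine beta-synthase that feeds Cth, was called lower (adjusted p = 0.00674) while exceeding the limit of detection on 1 of 12 arrays.

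Of 21 further amino acid transporters none was called within a line. Over both lines 5 were called higher, against 3.35% of all genes, and none lower: Slc43a2 (0.58 ± 0.12), Slc7a3 (below the limit of detection on all arrays), the lysosomal arginine sensor Slc38a9 (0.52 ± 0.12), Slc7a11, which is also among the further ATF4 targets given above, and Slc36a1 (0.44 ± 0.12). Of 16 mitochondrial tRNA synthetases none was called in any comparison, with medians of -0.03 in PGC-1alpha explants and 0.13 in VC explants under phenformin, and the 9 other measured genes of cytosolic synthetases and their scaffold had none called either, with medians of 0.03 and 0.11. Among 9 further folate genes, Shmt1, the cytosolic serine hydroxymethyltransferase, was higher in PGC-1alpha than in VC explants in water (adjusted p = 0.0499), where 2 of 3 PGC-1alpha arrays and no VC array exceeded the limit, so no size is given.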
